A study of Apis mellifera with 12 samples.

Results

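The muscle contractile genes described here are 9 of the 15314 gene models counted in the brains of honey bee queens (Apis mellifera). They were chosen by name, from the Drosophila orthologs of the gene models. All 9 passed the filter on low counts, which kept 13038 genes. The set holds Prm, Mlc1 and Mlc2 of the thick filament, Act87E, Act88F and Tm2 of the thin filament, and bt with 2 gene models named Strn-Mlck, the connecting filament and kinase proteins. Brains of 12 queens were sequenced as 1 library each, from 4 mated, 4 CO2-treated and 4 virgin queens. All were adult sisters of Australian commercial stock, labelled ligustica and primarily of that heritage, from a single source colony, each kept in a colony of its own and killed at 8 days of age. Mated queens had flown and returned mated. CO2-treated queens were caged and narcotized for 10 min on successive days, and virgin queens were caged beside them but not narcotized. Caging is stated for the CO2-treated and virgin queens alone, so flight, mating and the lack of caging cannot be told apart in a comparison with mated queens, and with 1 source colony the p-values measure the spread between sisters.

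Muscle contracts when myosin heads of the thick filament pull on the actin of the thin filament, within repeats called sarcomeres. Paramyosin forms the core of invertebrate thick filaments, the myosin light chains stiffen and regulate the myosin neck, and tropomyosin with the troponins makes the thin filament sensitive to calcium. Giant titin-like proteins tie the thick filaments to the ends of the sarcomere in insect muscle. Sarcomeres belong to muscle, not to neurons or glia, and head muscles lie inside the capsule from which a brain is dissected. Which tissue the muscle RNA came from was not tested, and in such bulk samples fewer muscle cells and less muscle RNA per cell cannot be told apart.

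Between 12434733 and 20677514 reads per library were counted on genes. Levels are given as CPM, a gene's counts relative to the library total after scaling by TMM (a factor per library that evens out a few dominant genes), and 3 counts were worth between 0.134 and 0.271 CPM. A single gene, GB49544, took 13.7% to 42.7% of the counts of mated queens and at most 5.02% in any CO2-treated or virgin queen. Sample names of mated queen 1, CO2-treated queens 1 and 2 and virgin queen 1 carry a suffix whose meaning is not given. The only neuron gene on the marker lists, brp of the synapse, was found at 0.215 to 4.25 CPM, so the brain label could not be checked with it.

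No contractile gene passed the test in any of the 3 comparisons. Fold changes are log2 values of the first-named group over the second, from edgeR's quasi-likelihood test with Benjamini-Hochberg adjustment over all genes tested and a threshold of an adjusted p under 0.05. Between mated and virgin queens 0 of the 9 genes were called (adjusted p 0.102 to 0.749), where 1.2% of all genes were. In that comparison 8 of the 9 had a log2 fold change above 0, as did 43.3% of all genes (6 of 9 when total counts replaced TMM, with Mlc1 and Mlc2 also below 0), with a median of 1.18 against -0.08 over all genes. Total counts moved the median of all genes to -0.79, and the distance of the 9 genes' median from it was 1.21, against 1.25 with TMM. Leaving out 1 queen moved the median of the 9 to 0.45 without mated queen 4 and 2.47 without virgin queen 6, and 0 of the 9 were called in each such fit. At an unadjusted p under 0.05, 3 of the 9 genes passed, as did 15.9% of all genes. Groups did not overlap in 0 of the 9, against 5.88% of all genes. Other tests on the same counts also called more of all genes. The tagwise exact test of edgeR, which takes a dispersion for each gene, called 1 of the 9 and 3.76% of all genes. DESeq2 called 2 of the 9 and 4.91% of all genes, and the common-dispersion exact test, which takes 1 value for all genes, called 6 of the 9 and 6.36% of all genes.

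Between mated and CO2-treated queens 0 of the 9 genes were called by the quasi-likelihood test (adjusted p 0.186 to 0.984), where 0.66% of all genes were. Again 8 of the 9 were above 0, as were 47.1% of all genes, or 7 of 9 with total counts, which put Strn-Mlck GB45464 below 0. Their median was 1.48 against -0.03 over all genes, and 0.90 without mated queen 4. At an unadjusted p under 0.05, 2 of the 9 passed, as did 13.8% of all genes. Groups did not overlap in 1 of the 9, against 10.8% of all genes. The tagwise exact test and DESeq2 called 0 of the 9, with 2.2% and 3.23% of all genes, and the common-dispersion test 8 of the 9, with 4.81% of all genes. Between CO2-treated and virgin queens 0 of the 9 were called (adjusted p 0.867 to 0.985), where 0.0153% of all genes were, 0 passed at an unadjusted p under 0.05, where 5.81% of all genes did, and these other tests called 0 of the 9, with 0.13% (tagwise), 0.153% (DESeq2) and 1.15% (common dispersion) of all genes. Groups did not overlap in 0 of the 9, against 4.43% of all genes. In this comparison 3 of the 9 were above 0, as were 47.5% of all genes, and the median was -0.23, but without virgin queen 6 the median was 1.03 with 8 of 9 above 0. The comparisons with mated queens share those 4 queens, and each other pair of comparisons shares a group as well. All 9 genes stand on lists of genes that the study called in these same libraries, with an exact test. Neither their direction nor their p-values and calls by any test here are therefore independent evidence.

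The spread between queens of a group was wide in 8 of the 9 genes. The dispersion fitted to a gene, its variance between queens beyond counting noise, was 0.572 to 0.749 in these 8, above that of at least 97.1% of all genes, against a common value of 0.133. Strn-Mlck GB43867 had a dispersion of 0.146. The common-dispersion test gives every gene the common value and so does not use the spread of these genes.

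**Figure D1:**
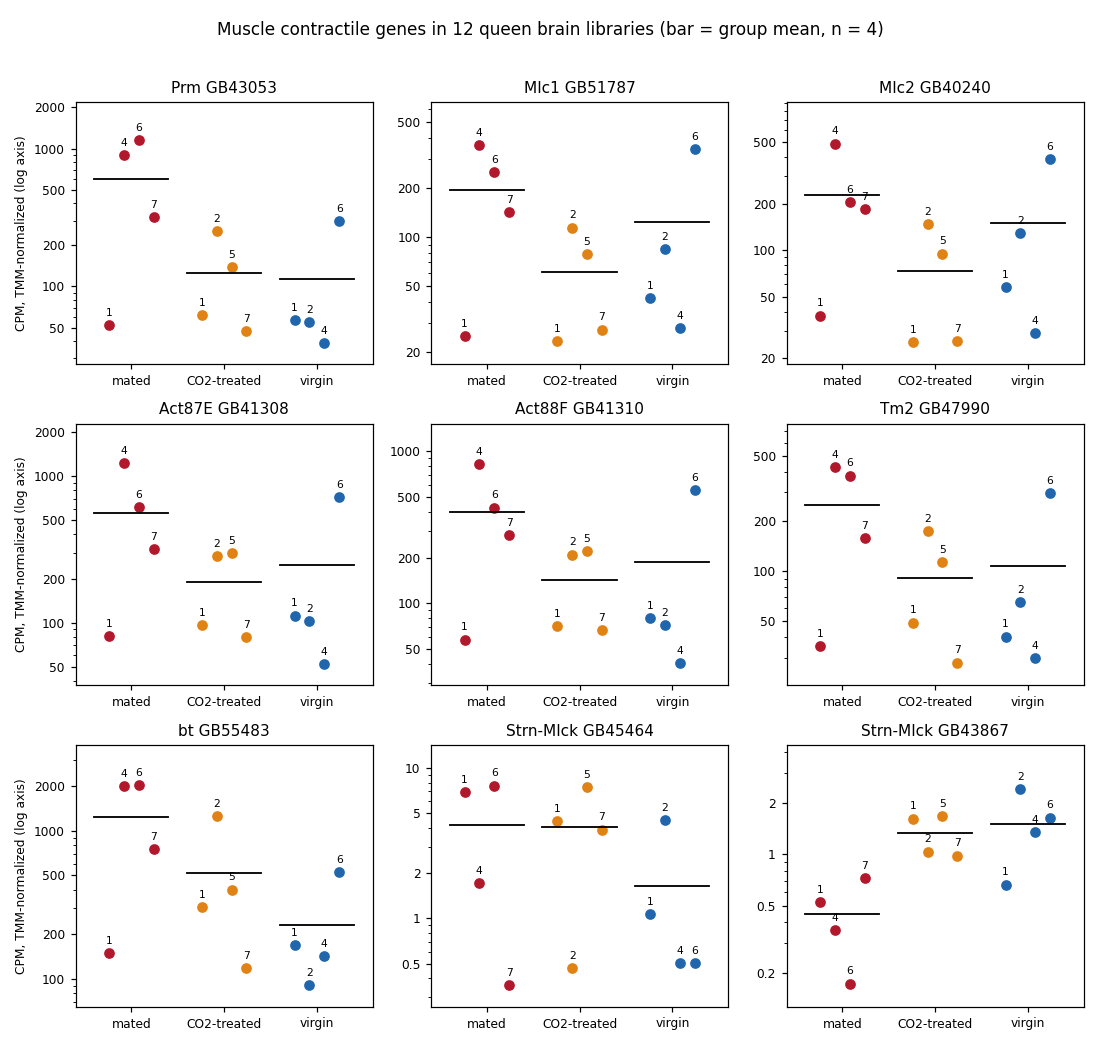
Levels of the 9 contractile genes in each of 12 queens, as TMM-normalized CPM on a log axis, with mated, CO2-treated and virgin queens from left to right. Points are single libraries with the number of the queen beside them and the black bar is the mean of 4 queens. In the 7 genes other than Strn-Mlck, mated queen 1 lies below the other mated queens and virgin queen 6 above the other virgin queens, while Strn-Mlck GB43867 is at 0.723 CPM or less in every mated queen.

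Of the thick filament genes, Prm had the largest fold changes of mated queens over the others, neither past the threshold. Prm GB43053 codes for paramyosin, and it had 52.1, 896, 1151 and 321 CPM in mated queens 1, 4, 6 and 7, 61.8, 252, 137 and 47.1 CPM in CO2-treated queens 1, 2, 5 and 7, and 57.1, 54.9, 38.7 and 299.5 CPM in virgin queens 1, 2, 4 and 6. Mated queens 4, 6 and 7 lay above every other queen, while mated queen 1 lay within the range of the CO2-treated and virgin queens. The group means were 605 ± 507 CPM in mated, 125 ± 93.9 CPM in CO2-treated and 113 ± 125 CPM in virgin queens (SD, n = 4 each). The log2 fold change was 2.43 ± 0.89 (SE) in mated against virgin queens, with an adjusted p of 0.206 by edgeR. It was 2.28 ± 0.89 (SE) in mated against CO2-treated queens, with an adjusted p of 0.283 by edgeR, and 0.15 ± 0.85 (SE) in CO2-treated against virgin queens. Without virgin queen 6 the first of these was 3.59 with an adjusted p of 0.0613. Among the 3 mated and 3 virgin queens whose names carry no suffix it was 2.55.

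The myosin light chains had a different order of groups, with virgin queens above CO2-treated queens on average. Mlc1 GB51787, the essential light chain, had 25.0, 362, 248 and 143 CPM in mated queens 1, 4, 6 and 7, 23.1, 114, 78.5 and 27.2 CPM in CO2-treated queens 1, 2, 5 and 7, and 42.4, 84.5, 28.0 and 342 CPM in virgin queens 1, 2, 4 and 6. Mlc2 GB40240, the regulatory light chain, had 37.7, 489, 205 and 184 CPM in mated queens, 25.5, 147, 95.0 and 25.9 CPM in CO2-treated queens and 57.9, 129, 29.1 and 388 CPM in virgin queens, with the queens in the same order. In both genes mated queen 4 was highest, virgin queen 6 came next, and the 3 groups overlapped. In mated against virgin queens the log2 fold change was 0.65 ± 0.84 (SE) for Mlc1 and 0.60 ± 0.84 (SE) for Mlc2, and without virgin queen 6 it was 1.91 and 1.67 (adjusted p 0.191 and 0.270 by edgeR). In mated against CO2-treated queens it was 1.68 ± 0.86 (SE) for Mlc1 and 1.64 ± 0.86 (SE) for Mlc2. In CO2-treated against virgin queens it was -1.03 ± 0.84 (SE) for Mlc1 and -1.04 ± 0.84 (SE) for Mlc2, values that became 0.23 and 0.025 without virgin queen 6. In mated against virgin queens the lowest value of Mlc2 with a single queen left out was negative.

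The 3 thin filament genes lay close to each other in every comparison. Act87E GB41308 and Act88F GB41310 are named after Drosophila muscle actins, the second of them the actin of the indirect flight muscle. Act87E had 81.3, 1218, 612 and 319 CPM in mated queens 1, 4, 6 and 7, 96.9, 285, 298 and 80.2 CPM in CO2-treated queens 1, 2, 5 and 7, and 112, 102, 52.5 and 721 CPM in virgin queens 1, 2, 4 and 6. Act88F had 57.7, 819.8, 427 and 280.1 CPM in mated queens, 70.6, 209, 221 and 66.5 CPM in CO2-treated queens and 79.7, 71.7, 40.2 and 554 CPM in virgin queens, again in the order of the queen numbers. Mated queen 4 and virgin queen 6 stood highest in both actins, and mated queen 1 lay below virgin queens 1 and 2. Actin genes resemble each other, and near-identical copies can share reads, so the levels of each actin are uncertain. The counts of another gene model, GB41306, came to between 96.9% and 109% of the Act87E counts in each queen.

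Tm2 GB47990, a tropomyosin that lies along the actin filament, had 35.3, 426, 379 and 158 CPM in mated queens 1, 4, 6 and 7. It had 48.8, 176, 114 and 28.0 CPM in CO2-treated queens 1, 2, 5 and 7 and 40.2, 64.8, 29.7 and 297 CPM in virgin queens 1, 2, 4 and 6. Its queens fell in nearly the same order as those of the actins, with overlap between all groups. In mated against virgin queens the log2 fold change was 1.18 ± 0.86 (SE) for Act87E, 1.09 ± 0.85 (SE) for Act88F and 1.21 ± 0.83 (SE) for Tm2, with adjusted p values of 0.522, 0.549 and 0.497 by edgeR. Without virgin queen 6 it was 2.65, 2.63 and 2.47 in the same order of genes, with adjusted p values of 0.0911, 0.0818 and 0.106. In mated against CO2-treated queens it was 1.55 ± 0.87 (SE), 1.48 ± 0.86 (SE) and 1.45 ± 0.84 (SE) in the same order of genes. In CO2-treated against virgin queens all 3 were below 0, between -0.39 and -0.23, and between 1.03 and 1.15 without virgin queen 6.

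Among the connecting filament and kinase genes, bt went with the thick and thin filament genes from queen to queen and the Strn-Mlck models did not. The gene bt GB55483 codes for projectin, a titin-like protein of insect muscle that carries a kinase domain. It had 149, 2002, 2032 and 752 CPM in mated queens 1, 4, 6 and 7, 304, 1251, 401 and 118 CPM in CO2-treated queens 1, 2, 5 and 7, and 169.9, 91.0, 142 and 527 CPM in virgin queens 1, 2, 4 and 6. Mated queens 4 and 6 were highest, CO2-treated queen 2 took place 3 and virgin queen 6 place 5, its lowest in these 7 genes. The group means were 1234 ± 937 CPM in mated, 518 ± 502 CPM in CO2-treated and 232 ± 199 CPM in virgin queens (SD, n = 4 each). The log2 fold change was 2.41 ± 0.85 (SE) in mated against virgin queens, with an adjusted p of 0.192 by edgeR. It was 1.25 ± 0.82 (SE) in mated against CO2-treated queens and 1.16 ± 0.82 (SE) in CO2-treated against virgin queens. DESeq2 gave the first of these an adjusted p of 0.0323, and beside Strn-Mlck GB43867 it was the only contractile gene that DESeq2 called in any comparison.

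The 2 models named Strn-Mlck take their name from the Drosophila gene for stretchin and a myosin light chain kinase, and both had few counts. Strn-Mlck GB45464 had between 4 and 129 counts in a library. It had 6.97, 1.73, 7.66 and 0.361 CPM in mated queens 1, 4, 6 and 7, 4.44, 0.468, 7.45 and 3.90 CPM in CO2-treated queens 1, 2, 5 and 7, and 1.08, 4.49, 0.505 and 0.502 CPM in virgin queens 1, 2, 4 and 6. High and low queens occurred in each group and did not match those of the 7 genes above, since mated queen 1 was high and virgin queen 6 low. The log2 fold change was 1.33 ± 0.93 (SE) in mated against virgin queens, 0.05 ± 0.90 (SE) in mated against CO2-treated queens and 1.28 ± 0.92 (SE) in CO2-treated against virgin queens.

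Strn-Mlck GB43867 was the only contractile gene whose fold changes were below 0 in mated queens against both other groups. It had 0.527, 0.360, 0.174 and 0.723 CPM in mated queens 1, 4, 6 and 7, from 2 to 9 counts per library. It had 1.63, 1.04, 1.67 and 0.986 CPM in CO2-treated queens 1, 2, 5 and 7 and 0.666, 2.42, 1.35 and 1.65 CPM in virgin queens 1, 2, 4 and 6. Every mated queen lay below every CO2-treated queen, while mated queen 7 lay just above virgin queen 1. The value of mated queen 6 was under that of 3 counts. The log2 fold change was -1.75 ± 0.48 (SE) in mated against virgin queens, with an adjusted p of 0.102 by edgeR, and -1.55 ± 0.48 (SE) in mated against CO2-treated queens, with an adjusted p of 0.186. In CO2-treated against virgin queens it was -0.20 ± 0.43 (SE). The first comparison passed with edgeR's tagwise exact test (adjusted p 0.0230) and with DESeq2 (0.0210), and the second passed with neither.

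**Figure D2:**
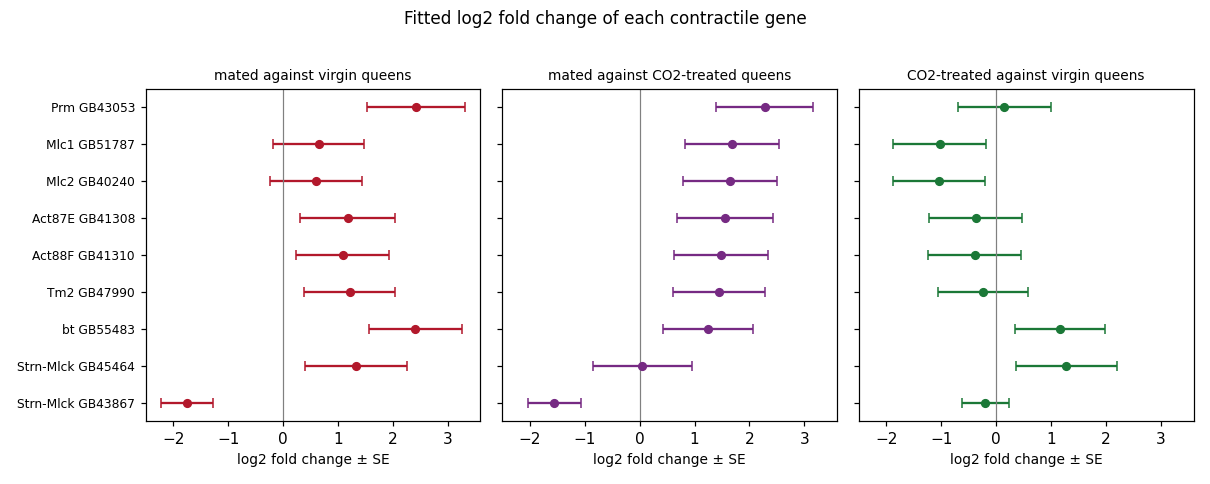
Fitted log2 fold change of each contractile gene in the 3 comparisons, with bars of 1 standard error. Prm and bt lie at 2.43 and 2.41 in mated against virgin queens and Strn-Mlck GB43867 at -1.75, and none passes an adjusted p under 0.05. With total counts in place of TMM, Mlc1 and Mlc2 fall below 0 in mated against virgin queens and Strn-Mlck GB45464 below 0 in mated against CO2-treated queens.

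The 7 genes other than Strn-Mlck, called the filament genes here, placed the 12 queens in much the same order. Mated queen 4 held place 1 or 2 in all 7, mated queen 6 places 1 to 3, virgin queen 6 places 2 to 5, mated queen 7 places 3 to 5 and CO2-treated queen 2 places 3 to 6. At the low end mated queen 1 held places 9 to 11, CO2-treated queen 7 places 10 to 12 and virgin queen 4 places 9 to 12. Virgin queen 2 was the least even, with place 6 in Mlc1 and Mlc2 and place 12 in bt. Their CPM summed to 438, 6214, 5054 and 2156 in mated queens 1, 4, 6 and 7, to 631, 2434, 1345 and 393 in CO2-treated queens 1, 2, 5 and 7, and to 559, 598, 360.3 and 3128 in virgin queens 1, 2, 4 and 6. Mated queen 1 thus lay below 3 of the virgin queens, and virgin queen 6 above 2 of the mated queens.

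Over the 12 queens the log2 CPM of these 7 genes correlated in all 21 pairs, with Pearson's r between 0.729 and 0.997 and Spearman's rho between 0.699 and 0.993. The adjusted permutation p was at most 0.016 for r and 0.0245 for rho, over 36 pairs of the 9 genes and 100000 permutations. The permutations ran over all 12 queens without regard to group. The genes stand on lists of genes the study called between these groups, so differences between groups can raise r and these p-values are no independent evidence. The lowest r was that of bt with Mlc2 and the highest that of Act87E with Act88F. Reads shared between actin models, if any, would raise the r of the actins, which was not tested. Taken as deviations from the group means, r was between 0.811 and 0.997. Without the 2 queens farthest from the median of the first gene of a pair, r was between 0.698 and 0.995. In the 15 pairs with a Strn-Mlck model, r was between -0.591 and -0.111 and rho between -0.469 and -0.0629, with adjusted permutation p of at least 0.0717 for r and 0.21 for rho. In these pairs r was between -0.456 and 0.0568 for deviations from the group means and between -0.529 and 0.240 without the 2 farthest queens. The queens share the depth and scaling of their libraries in all of these pairs.

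**Figure D3:**
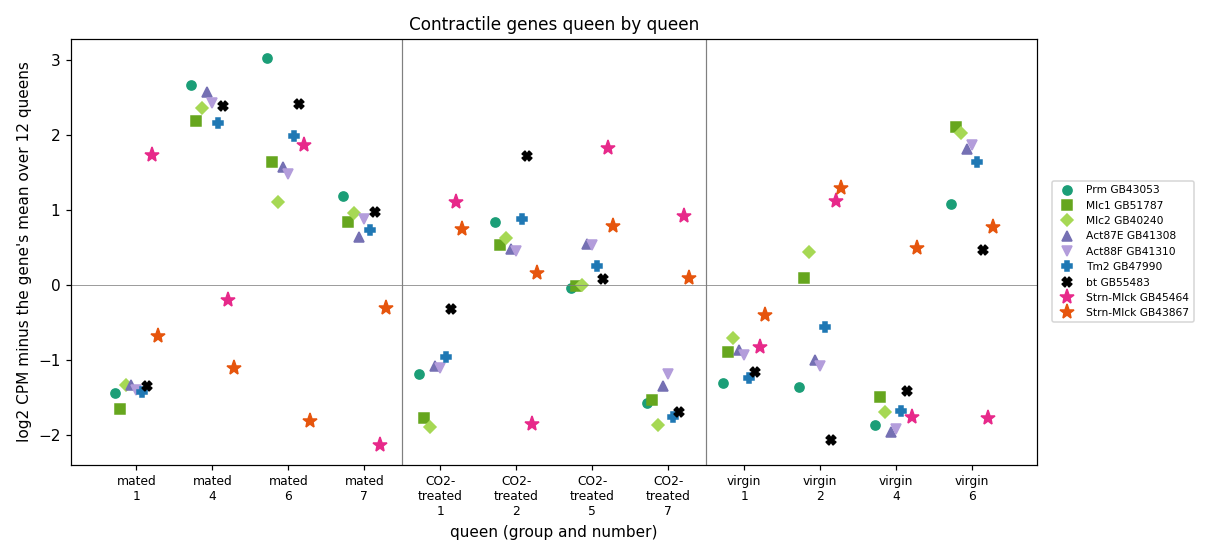
Log2 CPM of each contractile gene minus its mean over the 12 queens, for each queen, with mated, CO2-treated and virgin queens from left to right. Each symbol is 1 gene in 1 library. The 7 filament genes lie together in most queens, high in mated queens 4 and 6 and in virgin queen 6 and low in mated queen 1, CO2-treated queen 7 and virgin queen 4, and the 2 Strn-Mlck models (stars) lie apart from them in most queens.

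Ratios between genes in the same queen compare the members with each other. A log2 ratio of CPM was formed for 4 pairs and compared between groups by a two-sided exact permutation test over queens, in 12 tests adjusted together. With 4 queens against 4 the smallest p is 0.0286, 2 of 70 arrangements. The light chains kept a log2 ratio of Mlc1 over Mlc2 of -0.28 ± 0.38 in mated, -0.18 ± 0.19 in CO2-treated and -0.32 ± 0.25 in virgin queens (SD, n = 4 each). The actins had a log2 ratio of Act87E over Act88F of 0.44 ± 0.17 in mated, 0.40 ± 0.09 in CO2-treated and 0.44 ± 0.07 in virgin queens (SD, n = 4 each). Between groups these 2 ratios differed by 0.15 or less on the log2 scale, less than the SD between the queens of at least 1 group in each comparison, with exact p of 0.371 or more. Shared reads, if any, would also steady the ratio of the actins, which was not tested.

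The ratio of Prm to Mlc2 separated the virgin queens from both other groups, without passing after adjustment. The log2 ratio of Prm over Mlc2 was 0.46, 0.87, 2.49 and 0.80 in mated queens 1, 4, 6 and 7, 1.27, 0.78, 0.53 and 0.86 in CO2-treated queens 1, 2, 5 and 7, and -0.02, -1.23, 0.41 and -0.37 in virgin queens 1, 2, 4 and 6. Both groups lay wholly above the virgin queens, by means of 1.46 for mated and 1.16 for CO2-treated queens. The exact p of 0.0286 is the smallest this design allows, and adjusted over the 12 tests it was 0.171. The log2 ratio of bt over Mlc2 was 2.34 ± 0.65 in mated, 2.73 ± 0.72 in CO2-treated and 0.94 ± 1.22 in virgin queens (SD, n = 4 each). It was higher by 1.39 in mated and by 1.79 in CO2-treated than in virgin queens, with exact p of 0.114 and 0.0857 and overlap in both. None of the 12 tests passed after adjustment.

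**Figure D4:**
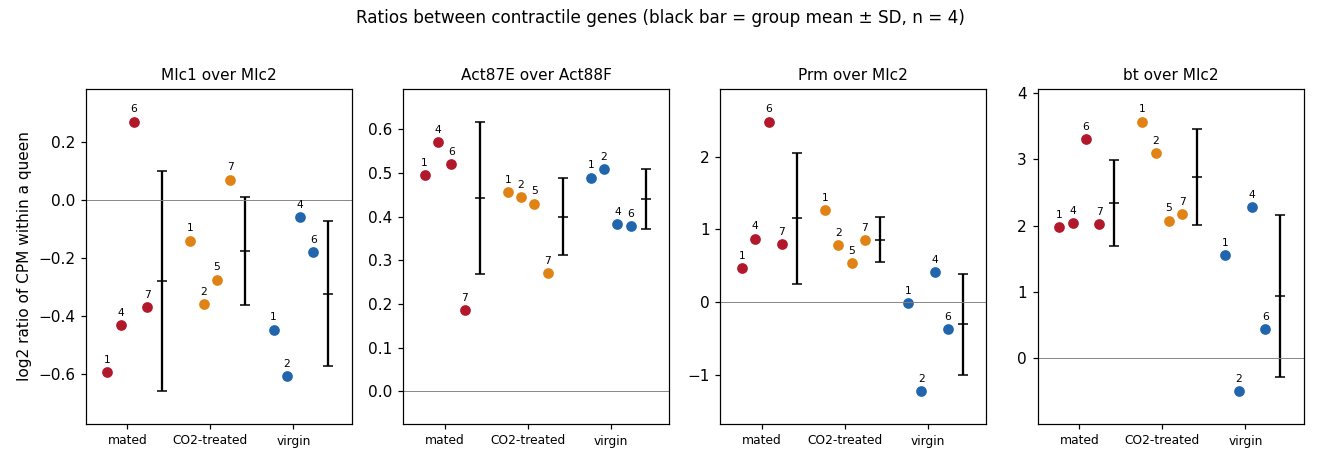
Log2 ratio of the CPM of 2 contractile genes within each queen, for 4 pairs of genes and with mated, CO2-treated and virgin queens from left to right. Points are queens with their number and the black bars give the group mean and SD of 4 queens. Prm over Mlc2 lies between 0.46 and 2.49 in mated queens and between -1.23 and 0.41 in virgin queens, while the ratios within the light chains and within the actins overlap between all groups.

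A list of 15 other muscle genes, by ortholog name, gave some further parts of the sarcomere and its attachments. It holds troponin C genes, the titin-like sls and the obscurin-like Unc-89, proteins of the Z disc where thin filaments anchor, the nuclear anchor Msp-300 and the muscle transcription factor nau. All 15 stand on the study's own lists of genes called in these libraries with an exact test. Their direction, p-values and calls by any test here restate that choice in part and are no independent evidence. The quasi-likelihood test called 0 of the 15 in every comparison. Between mated and virgin queens all 15 were above 0, with TMM and with total counts, against 43.3% of all genes with TMM. Their median log2 fold change was 1.73, and 10 of them had an unadjusted p under 0.05, against 15.9% of all genes. The tagwise exact test called 2 of the 15 (3.76% of all genes), DESeq2 3 (4.91%) and the common-dispersion test 15 (6.36%). Between mated and CO2-treated queens all 15 were above 0 with TMM and 11 of 15 with total counts, against 47.1% of all genes with TMM. Their median was 1.44, and 6 had an unadjusted p under 0.05, against 13.8% of all genes. The 3 other tests called 0, 0 and 10 of the 15 in the same order, and 2.2%, 3.23% and 4.81% of all genes. Between CO2-treated and virgin queens 11 of 15 were above 0, against 47.5% of all genes, with a median of 0.33. None of the 15 had an unadjusted p under 0.05, against 5.81% of all genes, and the 3 other tests called 0 of them. That median was 1.04 without virgin queen 6 and -0.23 without CO2-treated queen 2.

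The gene sls GB47977, which in Drosophila ties thick filaments to the Z disc, had the largest fold change of the list in mated against virgin queens. It had 621, 6662, 10234 and 3744 CPM in mated queens 1, 4, 6 and 7, 1126, 5099, 1162 and 459 CPM in CO2-treated queens 1, 2, 5 and 7, and 652, 393, 779 and 1724 CPM in virgin queens 1, 2, 4 and 6. Its 5 highest queens were the 5 highest of bt in the same order. Its log2 fold change was 2.58 ± 0.85 (SE) in mated against virgin queens, with an adjusted p of 0.164 by edgeR. The smallest in that comparison was 1.13 ± 0.98 (SE), of TpnC41C GB40619, a troponin C. In mated against CO2-treated queens the largest was 2.49 ± 0.93 (SE), of CG5023 GB50123, and the smallest 0.61 ± 0.76 (SE), of Unc-89 GB46705. In CO2-treated against virgin queens the range ran between -0.60 for CG5023 and 1.19 for Unc-89.

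Msp-300 GB40008 was the 1 gene of the list that passed when mated queen 1 was left out, with an adjusted p of 0.0365 by edgeR, in a fit that called 1.99% of all genes. It had 83.2, 319, 332 and 245 CPM in mated queens 1, 4, 6 and 7, 107, 201, 96.9 and 78.7 CPM in CO2-treated queens 1, 2, 5 and 7, and 105, 55.2, 98.4 and 125 CPM in virgin queens 1, 2, 4 and 6. With all 12 queens its log2 fold change in mated against virgin queens was 1.35 ± 0.42 (SE), with an adjusted p of 0.140. Mated queens 4, 6 and 7 lay above every other queen and mated queen 1 below 3 of the 4 virgin queens and 3 of the 4 CO2-treated queens. It is named here for that call, after its values were seen.

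**Figure D5:**
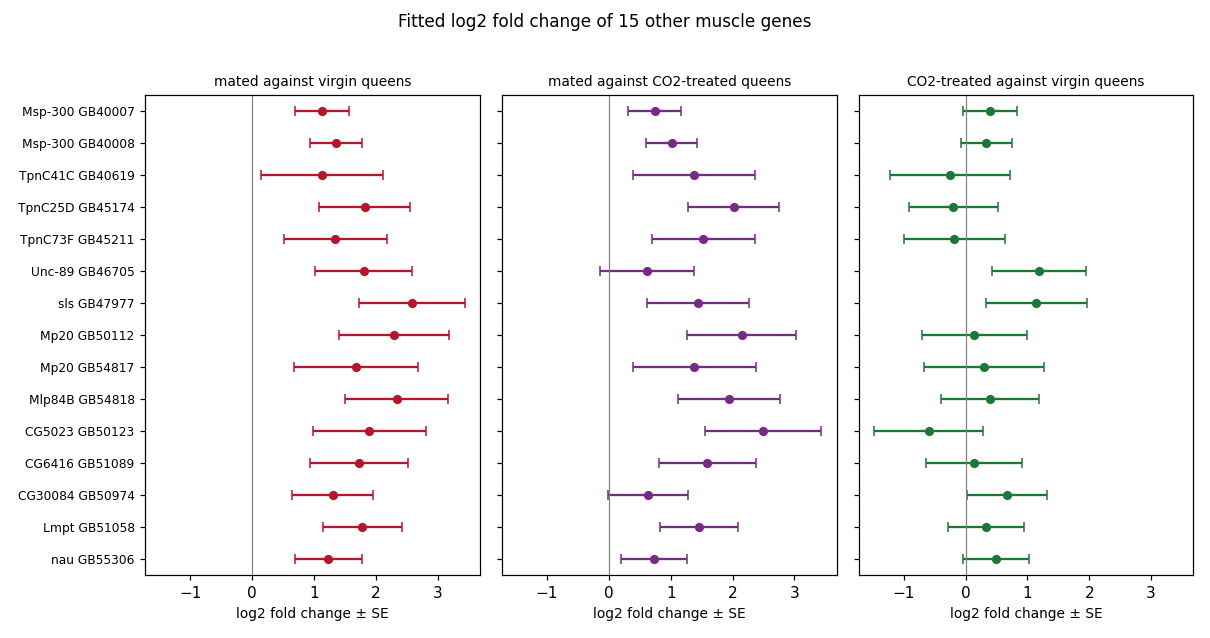
Fitted log2 fold change of 15 other muscle genes in the 3 comparisons, with bars of 1 standard error. All 15 are above 0 in both comparisons of mated queens, with medians of 1.73 and 1.44, but 4 of them fall below 0 in mated against CO2-treated queens when total counts replace TMM, and none passes an adjusted p under 0.05.

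Markers of other tissues in the head also differed between queens, and their part in the results for the contractile genes was not tested. The 4 fat body genes, GB49544 among them, summed to between 143002 and 794473 CPM in mated, 14229 and 52938 CPM in CO2-treated and 3318 and 32564 CPM in virgin queens. In mated queens most of this sum was GB49544, with 769172 CPM in mated queen 6. Lsp2 GB51697 of the same list overlapped between groups, with 14.9 to 136 CPM in mated and 13.8 to 24.9 CPM in virgin queens. Mated queen 1 was the lowest mated queen in the sum of the 4 genes, as in that of the contractile genes. CO2-treated queen 7, however, was the highest CO2-treated queen in this sum (52938 CPM) and the lowest in that of the contractile genes (398 CPM). The 2 hemocyte genes Hml and srp summed to between 843 and 2647 CPM in mated and 775 and 3328 CPM in CO2-treated queens. In virgin queens they summed to between 319 and 1446 CPM. Mated queen 1 and virgin queen 6 were lowest and highest of their groups in this sum, most of which was Hml. CO2-treated queen 2, however, was the lowest of its group in this sum (775 CPM) and the highest in that of the contractile genes (2435 CPM). In srp alone virgin queen 4 was highest of its group (54.6 CPM), above virgin queen 6 (33.9 CPM). The 8 photoreceptor genes summed to between 71.2 and 267 CPM in mated and 86.2 and 192 CPM in CO2-treated queens. In virgin queens they summed to between 155 and 867 CPM, with virgin queen 6 lowest. That queen was the lowest virgin queen in Rh2, ninaC, norpA, Arr2 and Gbeta76C, but not in chp, ninaA or Cpn. Its Cpn level of 39.5 CPM was the highest of all 12 queens. The tendon gene sr, which marks the cells that insect muscles attach to, had 22.0 to 93.6 CPM in mated, 15.1 to 22.5 CPM in CO2-treated and 9.52 to 29.2 CPM in virgin queens, with virgin queen 6 below virgin queens 1 and 4. No gene of these lists was at 0 in any queen.

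Of the 10 genes whose levels went most like those of the set, 2 are on the list of other muscle genes. Over the 12 queens the log2 CPM of each of 10289 other genes was correlated with the mean standardized profile of the 8 members whose log2 CPM averaged 1 or more, as a description. These were the filament genes and Strn-Mlck GB45464, which had a negative r with each of the filament genes. The closest 10 were GB55325 (r = 0.988), GB55598, GB41306, GB43029, Mp20 GB50112, CG5023 GB50123, GB44613, GB44500, GB50111 and GB43052 (r = 0.972). Mp20 GB50112, a muscle protein of the calponin family, averaged 112 CPM in mated, 25.2 CPM in CO2-treated and 22.9 CPM in virgin queens. GB44500 is named fau by its Drosophila ortholog. GB43052, whose identifier precedes that of Prm, had between 74.5% and 101% of the Prm counts in each queen. GB43029 had between 89.3% and 102% of the Act87E counts. Whether these models overlap or share reads with the members was not analysed here. Of the 15 muscle genes, 12 had r above 0.8, as did 3.29% of all genes compared. The members and these 15 genes all stand on the study's lists of genes called in these libraries. A shared difference between groups can raise r in genes chosen so, and this count is no independent evidence.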

How the data were processed

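RNA was extracted from each of 12 dissected brains, and the authors trimmed the reads with Trimmomatic, removed ribosomal reads with SortMeRna, aligned them with TopHat to Assembly 4.5 and counted them per gene with SAMtools idxstats. Tool versions and the use of strand are not given in the sources used here. The deposited table holds raw read counts without normalization, and the tests start from these counts. A second deposited table of standardized scores was not used.

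Genes with 10 or more counts summed over all 12 libraries were kept and normalized with TMM. All 12 queens in 3 groups were fitted with edgeR 4.0.16 in R 4.3.3, by the quasi-likelihood test with Benjamini-Hochberg adjustment over all genes tested, and DESeq2 1.42.0 was an alternative. The scripts were tested on simulated data. Standard errors restate the test (the absolute log2 fold change over the square root of F). CPM are TMM-normalized, and log2 CPM used a prior count of 2. The tagwise exact test of edgeR takes a dispersion for each gene and the common-dispersion test 1 value for all. The precision of a level is that of the 4 queens of a group, and the floor of 3 counts covers counting error only.

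The 9 contractile genes are named throughout. Of the 15 other muscle genes, those past the threshold and those with the largest and smallest fold change were to be named. The 10 genes most like the set were those whose log2 CPM averaged 1 or more with the highest Pearson correlation with its mean profile. The members and lists were chosen with earlier results of these data known, and gene names come from the study's lists of called genes. Other tests, scalings, filters and samples were tried as alternatives. Queen numbers name different animals and did not pair them. Figures were drawn with matplotlib 3.10.9.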

Additional observations from a re-analysis of the deposited data

Results flagged for a closer look

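Virgin queen 6 stood apart from the other 3 virgin queens in 4 contractile genes, with a gap to the nearest queen that exceeded 0.829 of the group's range, the critical value of Dixon's test for 4 samples. Its level was 299.5 CPM for Prm (gap 0.929 of the range), 721 CPM for Act87E (0.911), 554 CPM for Act88F (0.923) and 297 CPM for Tm2 (0.869). The 4 genes share the library and correlate over the queens, so they are not 4 separate observations. Virgin queen 2 stood apart in the same way in Strn-Mlck GB45464, with 4.49 CPM (0.856). Each of the 9 genes was tested in each group on CPM, 27 tests in all. Chance gives about 1 in 20 only where CPM are normally distributed, which was not tested. The test was not run on log2 CPM, a scale that draws high values closer to the others, so the flags hold for CPM alone.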

How the results depend on the processing

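The 27 fold changes of the contractile genes were recomputed in 615 settings, in which 571 kept direction and side of the threshold, 18 passed the threshold in the same direction and 26 turned in direction. The causes were not tested. In mated against virgin queens the tagwise exact test called 1 contractile gene, the common-dispersion test 6, DESeq2 2 and total counts 1, against 0. The 15 other muscle genes gave 2, 15 and 3 calls with these first 3 tests and 0 to 1 when each queen was left out. In mated against CO2-treated queens the common-dispersion test called 8 contractile genes and 10 other muscle genes. Over all genes the quasi-likelihood test called 157, 86 and 2 genes in mated against virgin, mated against CO2-treated and CO2-treated against virgin queens. In the same order of comparisons the tagwise exact test called 490, 287 and 17, the common-dispersion test 829, 627 and 150, DESeq2 640, 421 and 20, and fits of only the groups compared 45, 94 and 0. With total counts the 157 calls, 124 higher and 33 lower, became 4398, 160 higher and 4238 lower, and the 86 calls, 68 higher and 18 lower, became 24 higher and 73 lower.

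Total counts turned Mlc1 to -0.13 and Mlc2 to -0.16 in mated against virgin queens and Strn-Mlck GB45464 to -0.54 in mated against CO2-treated queens. Queens without a name suffix gave -0.83 for Strn-Mlck GB45464 in mated against CO2-treated queens and -0.50 for Prm in CO2-treated against virgin queens. With the suffix as a term, CO2-treated against virgin queens gave 0.14 for Act87E, 0.15 for Act88F and 0.33 for Tm2. With queen number as a replicate block the values were 0.47, 0.46 and 0.61 for the same genes. With this block 0 contractile and 0 other muscle genes were called in each comparison, and 177, 10 and 0 of all genes. Deviations of same-numbered queens had a mean correlation of 0.173 (-0.284 to 0.514 in 7 pairs). In the 41 other pairs the mean was -0.029 (-0.625 to 0.389), lower than that of the same-numbered queens. The numbers name different animals and were not taken as pairs.

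Leaving out each queen in turn gave log2 fold changes between -0.085 and 1.67 for Mlc2 in mated against virgin queens and between -0.43 and 0.52 for Strn-Mlck GB45464 in mated against CO2-treated queens. In CO2-treated against virgin queens the values lay between -0.45 and 1.31 for Prm, -1.53 and 0.23 for Mlc1, -1.63 and 0.025 for Mlc2, -0.71 and 1.10 for Act87E, -0.73 and 1.15 for Act88F, -0.76 and 1.03 for Tm2 and -0.45 and 0.13 for Strn-Mlck GB43867. For log2 ratios, leaving out each queen gave -0.14 to 0.15 for Mlc1 over Mlc2 in mated against virgin queens. Act87E over Act88F gave -0.039 to 0.089 in mated against virgin, -0.00034 to 0.13 in mated against CO2-treated and -0.060 to 0.0039 in CO2-treated against virgin queens. Prm over Mlc2 gave -0.15 to 0.53 in mated against CO2-treated queens. Of 108 ratio settings 98 kept their direction. A minimum of 10 counts in every library left 7 of the 9 genes, without the Strn-Mlck models, whose 2 to 129 counts per library limit their precision.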

Other observations

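A gene model beside Act88F in identifier, GB41311, had between 13.7% and 27.1% of the Act88F counts in each queen (r = 0.974 over 12 queens, given as a description). Its mean was 88.1 CPM in mated, 30.8 CPM in CO2-treated and 31.6 CPM in virgin queens. GB55598, an unnamed model second in likeness to the contractile genes, averaged 367 CPM in mated, 107 CPM in CO2-treated and 104 CPM in virgin queens. Both were chosen after their values were seen.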
